A study of Caenorhabditis elegans with 51 samples.

Results

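The gene ends described here are 2304 windows downstream of Caenorhabditis elegans genes whose read counts, set against those of the gene itself, were far higher when XRN2 had lost its function. They were chosen from the most deeply sequenced libraries, taken 10 h after a shift to 26 °C from wild type (WT) and from the temperature-sensitive strain xrn-2(xe31). A window was taken when its gene had at least 1000 counts in both libraries, when the window had at least 50 counts in xrn-2(xe31), and when the ratio (downstream + 1)/(gene + 1) was at least 8 times that in WT. Of 17429 windows listed, 9840 met the gene minimum, 5375 met both count minimums, and 2304 of these (42.9%) met the ratio limit. Another 1681 eligible windows lay between 2 and 8 times WT, and 1390 lay under 2 times WT. The last group serves below as the comparison group of gene ends that changed little at 10 h.

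XRN2 is a nuclear exonuclease that degrades RNA from its 5′ end towards its 3′ end. In the torpedo model of termination, cleavage of the nascent RNA at the polyadenylation site leaves a downstream RNA that is still being made; XRN2 enters at its free 5′ end, degrades it and helps to release RNA polymerase II. Where that degradation fails, reads are found past the gene end, which is called readthrough here.

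Whole animals labelled as fourth-stage larvae (L4) were sequenced in each experiment. In the time course, N2 animals (WT) and HW1660 animals, which carry the xrn-2(xe31) allele, grew for 59 h at 15 °C and were moved to 26 °C, with 1 library per strain at each hour from 0 to 10 h. RNA of both strains at 6 h and 10 h was sequenced again to a greater depth. The catalytic-dead strain HW2216 carries xrn-2(D234/236A)::gfp together with xrn-2(xe31), so that XRN2 protein that cannot cut RNA is present beside the temperature-sensitive protein, and it was taken at 6 h and 10 h after the shift beside its own N2 libraries. For RNAi, N2 animals were kept at 20 °C on bacteria with an empty vector (mock) or against xrn-2, from the first larval stage to mid-L4. Each treatment gave 1 polyA-selected library. After depletion of rRNA there were 1 library from mock and 2 from xrn-2 RNAi. All other libraries were polyA-selected. RNA was pooled from many cells of many animals, so fewer cells of a type and less RNA per cell cannot be told apart.

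Total gene counts were 41238235 to 57832479 in the libraries of the time course and 239213652 to 253142688 in the resequenced ones. Those of the catalytic-dead experiment held 49628394 to 74356542, the polyA RNAi libraries 36463650 and 44605077, and the rRNA-depleted ones 21695913 to 23817072. The xrn-2 transcript was at 226 to 279 CPM (counts scaled to the library's total gene counts) in xrn-2(xe31) at 6 to 9 h against 115 to 119 in WT, and at 500.3 and 537 in the catalytic-dead strain against 103 and 106. It was at 79.5 CPM in the polyA library labelled xrn-2 RNAi against 132 in mock. After rRNA depletion, the libraries labelled xrn-2 RNAi had 80.2 and 68.8 CPM against 69.3 in mock, so the transcript does not set those libraries apart from mock.

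The time-course table and the resequenced table hold reads of the same 10 h RNA, and 30 of the 2304 windows departed from each other by at least 8 times between them. The window after let-418, a chromatin remodelling ATPase, had 7510 counts in the WT 10 h library of the time course and 1 count in the deeper WT library. The window after catp-7, a cation-transporting ATPase, had 1579 and 3 counts, and that after the neuropeptide gene nlp-80 had 919 and 0. In the time-course table these 3 windows were high in both strains; of the 30, 27 were higher there than in the resequenced table and 3 were lower, and others, such as T15B7.1 with 0 counts in WT and 796 in xrn-2(xe31), were high in the mutant alone. With the 30 windows, WT at 10 h had 0.0872 downstream counts per 100 gene counts over all members, and without them 0.0353, against 0.0401 in the resequenced library. let-418, catp-7, set-5 and snf-5 are named for values that had been seen. Sums by hour are therefore given without the 30 windows, and counts of called members in the time course with and without them; values of the catalytic-dead and RNAi experiments include them.

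At 10 h, in the libraries that chose them, the windows had a median of 7 counts in WT and 216 in xrn-2(xe31), a median ratio of 24.6 times WT. The largest was 3921 times, and 196 windows were at 0 in WT. Windows under 2 times WT had medians of 256.5 and 341.5 counts. This contrast in WT counts follows from the ratio limits that define the groups. The members' genes had a median of 14322.5 WT gene counts, against 10563 between 2 and 8 times WT and 5560.5 in the comparison group. These gene counts are also part of the rule, so they only describe the groups. hse-5, a heparan sulfate epimerase, lay just inside the limit, 8 times WT to the nearest hundredth, with perm-1, an eggshell permeability gene, and nac-2, a sodium-coupled carboxylate transporter, both at 8.01. Just outside were pad-1 at 7.99, and the recombination gene rmh-1 and the sex determination gene tra-2, both at 7.98. The limit cuts a continuous range: rmh-1 had 6, 2, 2 and 8 downstream counts in WT at 6, 7, 8 and 9 h against 50, 67, 82 and 93 in xrn-2(xe31), with no overlap.

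The first question was when reads past these gene ends appear after the shift. They built up hour by hour in xrn-2(xe31) and stayed low in WT. In WT the median window had between 0.0203 and 0.0511 downstream counts per 100 gene counts from 0 to 9 h. In xrn-2(xe31) it had 0.0755 at 0 h, 0.102 at 3 h, 0.219 at 5 h, 0.350 at 6 h, 0.654 at 8 h and 0.973 at 9 h. Set against WT of the same hour, with pseudocount 1, the median log2 ratio was 0.09 at 0 h, 0.25 at 2 h, 0.70 at 4 h, 1.86 at 6 h, 3.01 at 8 h and 3.42 at 9 h. These sizes depend on the pseudocount: with pseudocount 5 the medians were 0.02 at 2 h, 0.18 at 4 h, 1.02 at 6 h, 1.76 at 8 h and 2.17 at 9 h. The comparison group stayed between -0.06 and 0.07 over the same hours. The sums without the 30 departing windows rose from 0.0590 downstream counts per 100 gene counts at 0 h to 0.319 at 6 h and 0.674 at 9 h in xrn-2(xe31), and lay between 0.0320 and 0.0526 in WT. The resequenced 6 h libraries gave a median ratio of 5.06 times WT. No window length was known here, so shares are compared within a gene and not between genes.

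**Figure D1:**
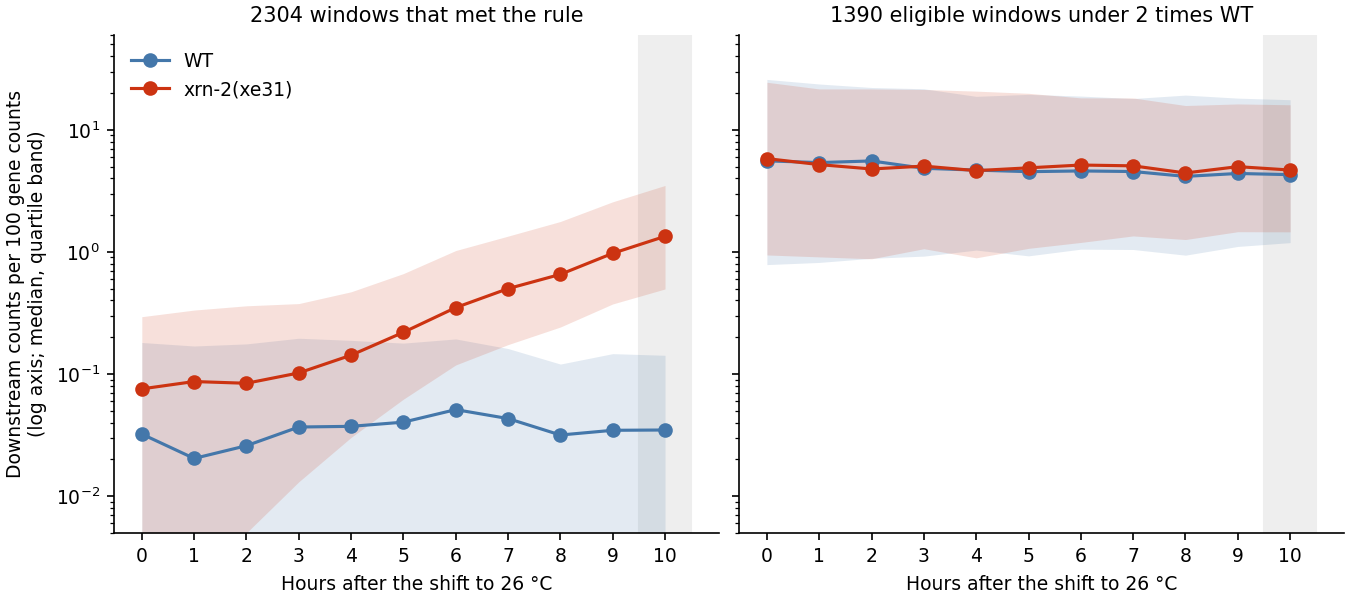
Downstream counts per 100 gene counts (log axis) by hours after the shift to 26 °C, for the 2304 members (left) and the 1390 eligible windows under 2 times WT (right). Points are medians over windows in 1 library, bands run from the lower to the upper quartile and are cut at the lower end of the axis, and the grey strip marks 10 h, whose RNA chose the members. The xrn-2(xe31) median of members climbs from 0.0755 at 0 h to 0.973 at 9 h while WT stays at or under 0.0511.

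From 6 to 9 h, the downstream ratio rose in xrn-2(xe31) for nearly every member that could be tested. Of 2232 members tested, 2115 rose and 0 fell (quasi-likelihood test of edgeR with Benjamini-Hochberg (BH) adjustment at 0.05), with a median log2 change of 3.32, or 9.96-fold. Over all 10791 windows tested, 42.2% rose, 1.89% fell and the median log2 change was 0.93. In 2049 members the ratio was higher than in WT in 4 of 4 hours, a count that was not made over all windows. The log2 change in the fit was above 0 in 2230 of 2232 members and in 8558 of 10791 windows. It was above 0 in 1632 of 1671 windows between 2 and 8 times WT and in 767 of 1388 of the comparison group. In the comparison group 163 of 1388 rose and 84 fell, with a median of 0.07, and in the group between 2 and 8 times WT 1095 of 1671 rose, with a median of 1.31. The 117 members tested but not called had a median of 18 downstream counts in xrn-2(xe31) over these hours against 85 in those called, and 115 of them had a log2 change above 0.

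A window passes the count filter more easily when it is high in the mutant, so the counts were repeated in other ways. With no filter 2151 of 2304 members were called. The 922 members that reached 20 counts in WT libraries alone gave 880 rises and 0 falls with a median of 2.72. Under these filters the share over all windows was not counted, so they do not set members apart from other windows. Without the 30 departing windows 2091 of 2203 were called. With counts of the window upstream of each gene as the reference in place of gene counts, 361 members could be tested and 241 rose, with a median of 2.45; fipr-2 then had a log2 change of -0.53 in place of 5.03.

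Some large changes were read against almost nothing in WT. Downstream of crt-1, the endoplasmic reticulum chaperone calreticulin, WT had 4, 2, 1 and 1 counts at 6, 7, 8 and 9 h, and xrn-2(xe31) had 202, 407, 653 and 1016. The groups did not overlap, while the gene itself had 201086, 162751, 136684 and 127985 counts in WT and 192866, 145973, 158267 and 122541 in the mutant. The log2 change of the ratio was 7.92 ± 0.49 (SE; edgeR, BH-adjusted p = 4.01e-14). Downstream of gst-20, a glutathione S-transferase, WT had 1, 0, 1 and 2 counts and xrn-2(xe31) 186, 374, 512 and 673 (log2 8.32 ± 0.38, edgeR, BH-adjusted p = 1.01e-16). At 9 h this came to 28.2 downstream counts per 100 gene counts, so reads past the end had become a sizeable part of the signal at this gene. For twk-5, a potassium channel gene, WT was at 0 in all 4 hours against 20, 71, 68 and 152 counts in the mutant, at least 107-fold higher when the WT sum is set to 3 counts.

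Windows downstream of cuticle collagen genes also rose, at very high expression of the genes and not with 1 course. Downstream of the cuticle collagen gene col-129, WT had 5, 9, 1 and 7 counts from 6 to 9 h and xrn-2(xe31) had 3482, 3520, 2309 and 1201 (log2 8.96 ± 0.48, edgeR, BH-adjusted p = 2.60e-15). The gene's own counts were 159121 to 271870 in WT and 173582 to 230444 in the mutant, so the ratio changed through the window. col-124 had 11, 11, 13 and 12 downstream counts in WT and 996, 1408, 2013 and 3589 in the mutant (log2 7.39 ± 0.43). The window of col-129 was highest at 6 and 7 h and lower at 8 and 9 h, while that of col-124 grew up to 9 h, and at 0 to 2 h neither strain had more than 8 counts. All 38 collagen members rose from 6 to 9 h, beside 94.8% of all members tested. Their median log2 change of 5.07, taken over members alone, was the highest among the lists with at least 5 members. Over the 136 collagen windows tested, member or not, 87 rose and 1 fell, with a median of 2.301. This was below the median of 3.076 over all ribosomal protein windows tested, so collagens ranked first only among members. Members were chosen for a high ratio at 10 h.

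Ribosomal proteins were the list with the most members. They held 41 members of 55 eligible windows, and all 41 rose from 6 to 9 h with a median log2 change of 3.58. Of all members tested 94.8% rose at these hours, so such counts say little about a list in particular. Downstream of rps-11, of the small ribosomal subunit, WT had 8, 8, 14 and 9 counts and xrn-2(xe31) 164, 220, 456 and 693 (log2 5.13 ± 0.37, edgeR, BH-adjusted p = 9.02e-13). rps-19, of the same subunit, had 14, 29, 25 and 19 counts against 261, 293, 407 and 618, and the groups did not overlap in either gene. For rla-0, the stalk protein P0, the window had 2, 0, 3 and 0 counts in WT and 3, 10, 2 and 9 in the mutant, only 0.00509 per 100 gene counts at 9 h, and its groups overlapped. All 14 members among translation factors rose (median 4.27), among them iff-2, a translation factor of the eIF5A family, with 5, 2, 3 and 0 counts in WT against 105, 40, 52 and 45. All 9 members among tRNA synthetases rose as well (median 4.09). The arginyl-tRNA synthetase gene rars-1 went from 2, 4, 2 and 1 counts to 70, 113, 194 and 333 (log2 6.10 ± 0.44).

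**Figure D2:**
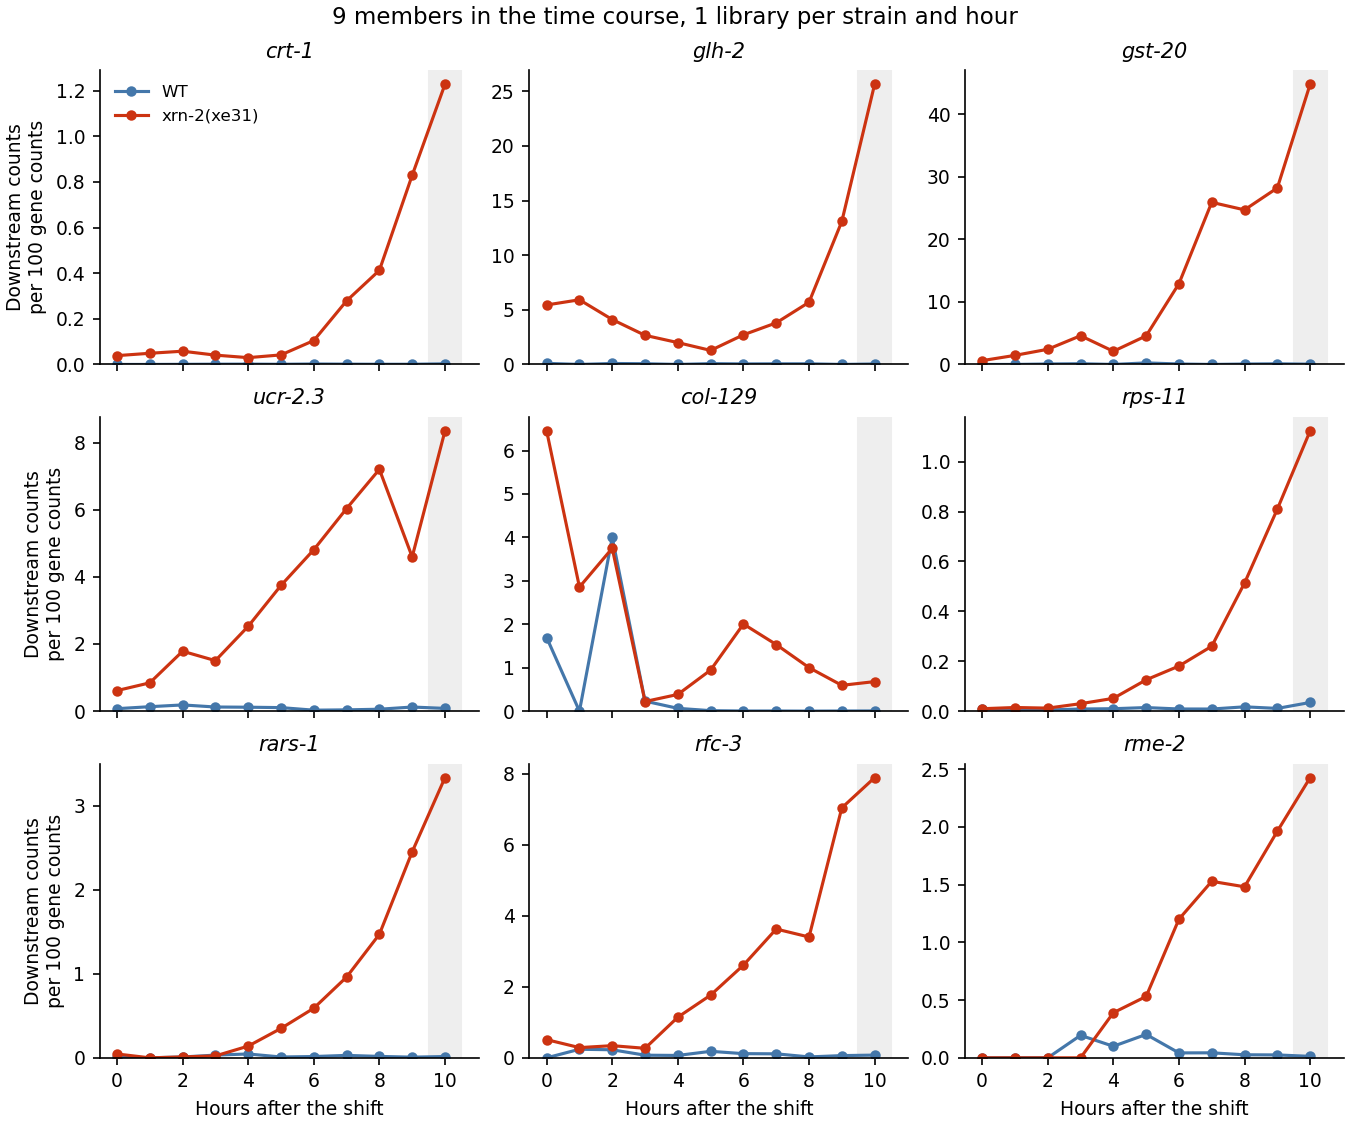
Downstream counts per 100 gene counts (linear axes that start at 0 and differ between panels) of 9 members by hours after the shift, 1 library per point; the grey strip marks 10 h, whose RNA chose the members. In all 9 the xrn-2(xe31) line is above WT at each hour from 6 to 9 h, while crt-1, glh-2, gst-20 and ucr-2.3 are also above WT from 0 h; the shares of col-129 at 0 to 2 h rest on 105 gene counts or fewer in either strain.

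As at 94.8% of all members tested from 6 to 9 h, downstream ratios rose at genes of RNA processing and of DNA replication. All 18 splicing windows tested rose (median log2 4.16). Downstream of prp-9, a subunit of the SF3a splicing complex, WT had 14, 13, 5 and 6 counts at 6 to 9 h and xrn-2(xe31) 536, 379, 323 and 298 (log2 5.31 ± 0.30, edgeR, BH-adjusted p = 5.48e-15). Here the mutant was highest at 6 h, unlike most members. uaf-1, the large subunit of the splicing factor U2AF, went from 8, 6, 1 and 9 to 122, 184, 203 and 277 counts. The downstream ratio rose at 17 of 18 members among DNA replication genes (median 3.35) and at 20 of 21 among mitosis genes (median 3.74). The genes' own counts rose in 0 and fell in 6 of 18 and 15 of 26. Over the whole lists, member or not, 18 of 37 and 25 of 52 genes fell, and 0 and 2 rose. rfc-3, a subunit of the clamp loader replication factor C, had 3, 4, 1 and 3 downstream counts in WT and 56, 98, 121 and 272 in the mutant (log2 5.78 ± 0.39).

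Germline and oocyte genes were members as well. In the germline list 18 of 19 members tested rose from 6 to 9 h (median log2 2.98) and in the oocyte list 13 of 13 (median 2.90). Over all members tested 94.8% rose. glh-2, a Vasa-like helicase of P granules, had 2, 3, 3 and 0 downstream counts in WT and 107, 188, 293 and 759 in xrn-2(xe31) (log2 7.19 ± 0.41, edgeR, BH-adjusted p = 5.18e-15). rme-2, the yolk receptor of oocytes, had 3, 5, 4 and 6 counts against 83, 144, 196 and 321 (log2 5.61 ± 0.35), while its gene counts went from 7037 at 6 h to 23884 at 9 h in WT and from 6913 to 16360 in the mutant. Summed oocyte markers overlapped between the strains at these hours, 3166 to 9116 CPM in WT and 3345 to 7432 in xrn-2(xe31). Sperm markers were at 3114 to 4587 and 4008 to 5456. Matched by hour, 14 of 30 oocyte genes fell and 1 rose (edgeR on gene counts, BH), with a median log2 change of -0.26. Of 78 sperm genes 24 rose and 1 fell, with a median of 0.23. The part of these levels in the results was not tested.

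As at 94.8% of all members tested from 6 to 9 h, downstream ratios rose at genes of energy metabolism, protein folding and protein turnover. They rose at all 13 members of mitochondrial respiration (median log2 3.59), whose own gene counts rose in 0 and fell in 7. Over that whole list, member or not, gene counts rose in 2 and fell in 20 of 47. ucr-2.3, a core subunit of respiratory complex III, had 2, 3, 4 and 9 downstream counts in WT and 323, 415, 512 and 315 in the mutant (log2 6.47 ± 0.32, edgeR, BH-adjusted p = 4.84e-16). All 14 proteasome members tested rose (median 3.12), as did 18 of 20 chaperones (median 3.27). hsp-1, the constitutive Hsp70 of the cytosol, went from 8, 10, 5 and 10 to 118, 223, 413 and 892 counts. pbs-5, a catalytic subunit of the proteasome core, had 18, 13, 9 and 8 counts in WT and 77, 117, 148 and 186 in the mutant, a smaller change (log2 3.15 ± 0.34). The end of xrn-2 itself was a member: WT had 2, 2, 2 and 4 counts and xrn-2(xe31) 28, 46, 54 and 46 (log2 2.94 ± 0.42), beside gene counts that rose by 1.01 on the log2 scale.

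The lists differed in how many of their eligible windows were members. Of eligible windows, 42.9% were members over all genes, against 74.5% for ribosomal proteins, 72.2% for mitosis genes (26 of 36) and 60.3% for collagens (38 of 63). Immune effectors had 7 of 38 (18.4%), transthyretin-related genes 5 of 18 (27.8%), muscle genes 5 of 14 (35.7%) and detoxification genes 13 of 32 (40.6%). These shares use the values that chose the members and are descriptions. At least 1 of the 29 lists held 389 of the 2304 members, and 2274 members have a gene symbol.

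**Figure D3:**
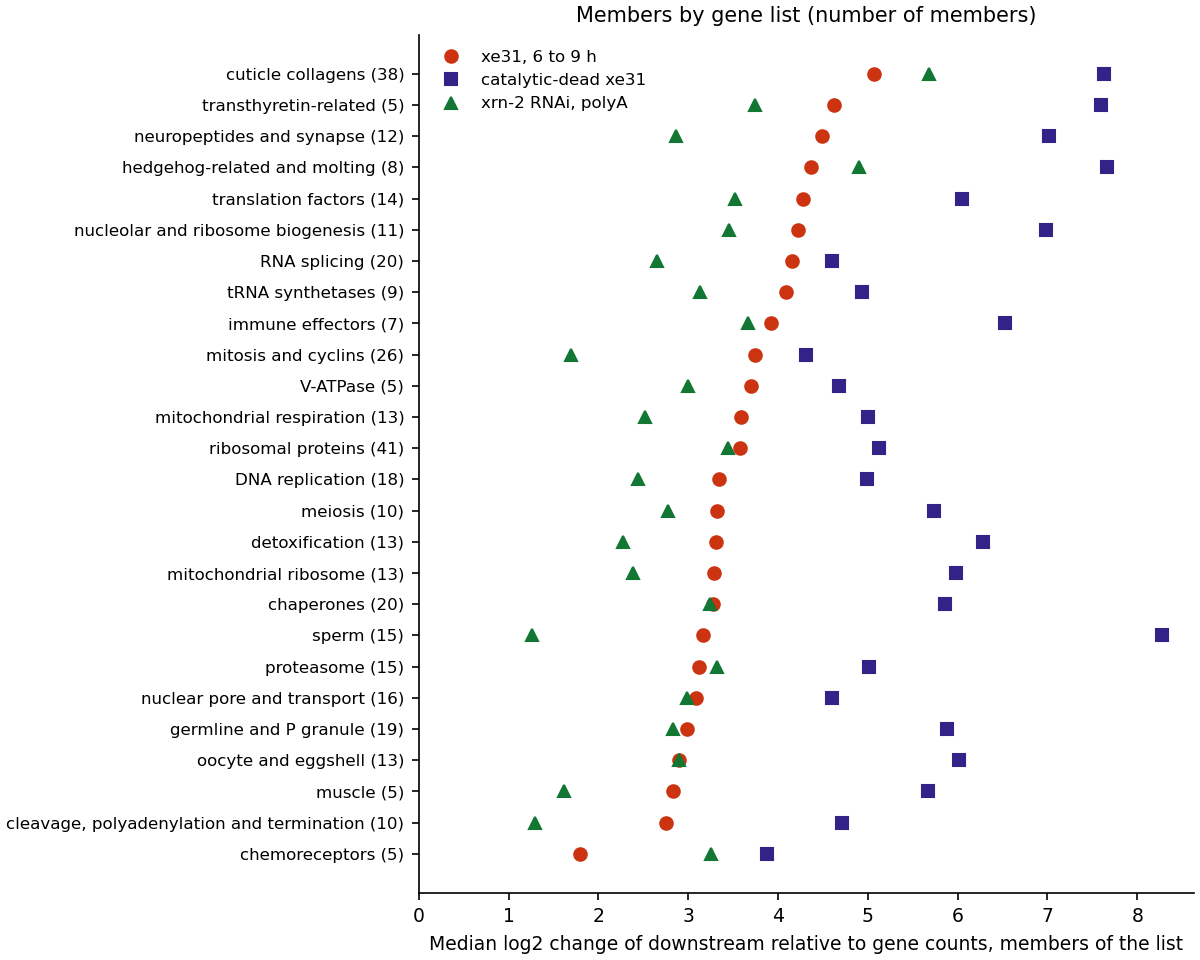
Median log2 change of downstream relative to gene counts over the members of each list with at least 5 members (number in parentheses), for xrn-2(xe31) at 6 to 9 h, the catalytic-dead strain and polyA RNAi. The first 2 medians cover the members tested and the third all members of the list. Every median is above 0; collagens are highest at 6 to 9 h (5.07), and the catalytic-dead medians lie above those of xrn-2(xe31) in every list shown.

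The next question was which gene ends part from WT first. From 0 to 2 h, 70 members rose and 0 fell of 2232 tested (edgeR, BH; median log2 change 0.59), where over all windows 1.07% rose and 0.0834% fell. All 70 also rose from 6 to 9 h, where 94.8% of all members tested did, and 66 of the 69 tested rose in the catalytic-dead strain, where 94.3% of all members tested did, so these shares say little about the early windows in particular. Their own median log2 change was 4.17 at 0 to 2 h and 5.25 at 6 to 9 h. At 0 h their windows summed to 170 counts in WT and 1223 in xrn-2(xe31). This early count depends on few libraries: it was 39 without 1 h and 20 without 2 h, it was 24 with DESeq2, 32 with WT libraries taken 1 h earlier as the control, and 69 of 2203 without the departing windows.

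At 19 members the ratio was at least 4 times WT at every hour from 0 h on, against 0 windows in either other eligible group. These 19 members include crt-1, glh-1, glh-2, gst-16, gst-20, ucr-2.3 and the cuticle collagen gene bli-1. Among them are also the transcription factor genes hlh-30 and zip-2, and arx-4, a subunit of the Arp2/3 actin-nucleating complex. Downstream of crt-1, WT had 0, 0 and 1 counts at 0, 1 and 2 h and xrn-2(xe31) 73, 100 and 122 (log2 7.82 ± 0.78, edgeR, BH-adjusted p = 1.57e-07). Downstream of glh-2, WT had 1, 0 and 1 counts and the mutant 65, 67 and 57 (log2 6.08 ± 0.65, edgeR, BH-adjusted p = 3.33e-07). At 0 h these reads were present in animals that had grown at 15 °C, and those of glh-2 stood at 37 counts at 5 h before they reached 107 at 6 h. hsp-1 had at most 4 counts in WT and at least 41 in the mutant at these hours (log2 4.29 ± 0.58). fipr-2, of the fungus-induced protein-related family, was at 0, 0 and 0 in WT and at 14, 41 and 82 in the mutant, at least 44.3-fold higher. dpy-4, a cuticle collagen gene, was at 0 in WT throughout and at 4, 11 and 34, at least 14.5-fold. By list, collagens had 6 early members, detoxification genes 3, chaperones 2 and the germline list 2.

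**Figure D4:**
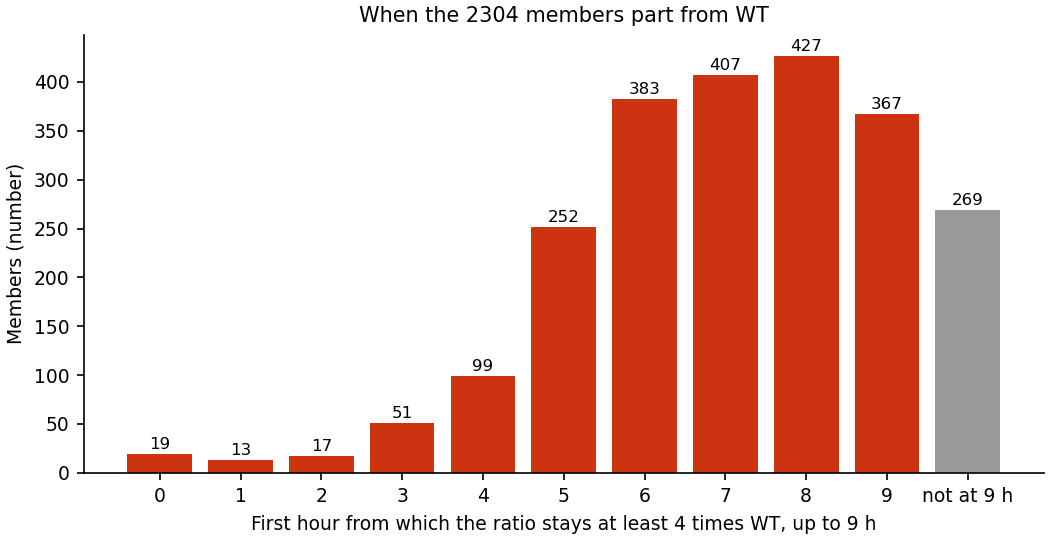
Number of members (linear axis from 0) by the first hour from which the ratio with pseudocount 1 stays at least 4 times WT up to 9 h. The count grows from 19 at 0 h to 427 at 8 h, and 269 members had not reached the limit at 9 h (grey bar).

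From 3 to 5 h 345 members rose and 1 fell of 2232 (edgeR, BH; median log2 change 1.27), where over all windows 5.3% rose and 0.463% fell. The 1 that fell was snf-5, a sodium-dependent transporter gene, with 22, 17 and 6 counts in WT and 8, 4 and 9 in the mutant beside gene counts of 538, 1267 and 2175 against 1103, 2071 and 3207 (log2 -1.85, BH-adjusted p = 0.0246 with edgeR). It rose later, from 4, 3, 3 and 1 counts at 6 to 9 h to 15, 14, 16 and 33. Without 4 h 205 members rose from 3 to 5 h, without 5 h 124, and with DESeq2 127. By the rule of a lasting ratio of 4 times WT, 451 members had parted from WT by 5 h, 834 by 6 h, 1241 by 7 h, 1668 by 8 h and 2035 by 9 h. Of 1681 windows between 2 and 8 times WT, 17 had done so by 5 h and 515 by 9 h. In the comparison group 10 of 1390 had by 9 h. The groups were set by their ratio at 10 h, so these counts follow in part from the rule. Ribosomal proteins were relatively early, with 18 of 41 members by 5 h and a median first hour of 6, as were collagens with 16 of 38. Oocyte genes had 1 of 13 by 5 h and sperm genes 0 of 15, each with a median first hour of 8 among those that reached the limit. Members of the cleavage, polyadenylation and termination list had 0 of 10 by 5 h, a median first hour of 9 and 4 of 10 not there at 9 h; the median was also 9 for muscle genes, chemoreceptors and vitellogenins, and the lists were not tested against each other. First hours depend on depth, since a window with few reads crosses the limit later.

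The growth of the response was itself tested. The late change exceeded the early one in 485 of 2232 members (edgeR, BH) and was smaller in 1, and the median difference was 2.67 on the log2 scale. Over all windows 7.81% were called higher and 0.315% smaller. The member with a smaller change was set-5, a SET-domain gene: from 0 to 2 h it had 2, 3 and 1 counts in WT against 18, 76 and 67 in the mutant, and from 6 to 9 h 80, 80, 68 and 60 against 135, 170, 268 and 338. Its log2 change was 4.19 ± 0.53 early and 1.71 ± 0.23 late, and WT counts were higher in the later hours. The count of 485 was 263 to 272 when 0, 1 or 2 h was left out, 254 with DESeq2, 202 with WT libraries taken 1 h earlier and 1306 with limma on log2 ratios.

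The same gene ends were then read in the catalytic-dead strain. It carries xrn-2(xe31) as well, and that experiment held no library of xrn-2(xe31) alone. A rise there thus cannot be set apart from that of xrn-2(xe31), and an effect of the inactive protein was not tested. The members' windows rose in this strain as well. Of 2089 members tested in the 4 libraries, 1969 rose and 0 fell (edgeR, BH), at a median log2 change of 5.48, or 44.5-fold. Over all 10972 windows 46.3% rose and 1.89% fell, with a median of 2.40. In the comparison group 224 of 1379 rose and 13 fell, with a median of 0.36. The members' median single-library ratio was 21.6 times WT at 6 h and 28.0 at 10 h. With no filter 2079 of 2296 were called. The 313 members with at least 20 counts in WT libraries alone gave 284 rises, with a median of 4.14. Here too the share over all windows was not counted with no filter or with this one. This fit has 1 residual degree of freedom, and with upstream counts as the reference 281 of 812 members rose, and gst-20, col-20, col-124 and fipr-2 changed sign.

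Downstream of crt-1 the N2 libraries had 4 and 8 counts at 6 h and 10 h and the catalytic-dead libraries 3228 and 2286 (log2 8.66 ± 0.90, edgeR, BH-adjusted p = 0.00430). Downstream of ucr-2.3 the counts were 25 and 17 against 7044 and 11887, more than the 5307 and 7283 counts of the gene itself in the mutant. twk-5 was at 0 and 0 against 1315 and 797, at least 621-fold higher, beside gene counts of 1933 and 768 in N2 and 1643 and 1419 in the mutant. In none of these 3 genes did the windows of the strains overlap. rars-1 went from 5 and 4 to 679 and 618, and prp-9 from 16 and 14 to 1032 and 1225. Ribosomal proteins rose in 38 of 40 members tested (median log2 5.12), and the 18 splicing members tested all rose (median 4.60).

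Gene levels also differed between the strains of this experiment, which bears on the ratio. Vitellogenins, the yolk proteins made by the adult intestine, summed to 14544 and 35570 CPM in N2 and to 47.1 and 55.5 in the catalytic-dead strain, with all 6 genes lower by the test. Oocyte markers were at 5259 and 18560 against 1368 and 1943 CPM, sperm markers at 3278 and 3712 against 460.3 and 1129, and collagens at 39176 and 41962 against 12409 and 13763. Of the members' own genes 20 rose and 82 fell (edgeR, BH), beside 2.6% and 1.33% of all genes. The part of these levels in the result was not tested. col-129 had 317735 and 78724 gene counts in N2 but 399 and 2425 in the mutant, while its window went only from 9 and 2 to 115 and 212; its log2 ratio change of 12.75 thus comes more from the gene counts than from the window. For col-20, another cuticle collagen gene, gene counts went from 153490 and 166522 to 831 and 2937 and the window went from 1 and 1 to 259 and 132. Downstream of rme-2 the counts were 8 and 7 in N2 and 11 and 6 in the mutant, which overlap, and its log2 ratio change of 4.56 came with gene counts of 17531 and 47516 against 1168 and 1486.

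Set against library size alone, 1793 of 1931 members tested rose in the catalytic-dead strain (edgeR, BH; 61.0% over all windows), at a median log2 of 5.12. For ribosomal proteins this count was 38 of 39, and for splicing 17 of 17. For collagens it was 24 of 31 with 1 fall, for oocyte genes 5 of 9 and for the vitellogenins 0 of 1, against 30 of 33, 11 of 11 and 2 of 2 with gene counts as the reference. Downstream of the collagen gene col-122 the counts were 54 and 54 in N2 and 0 and 6 in the mutant, a log2 change of -4.58 by library size alone, while its ratio had a log2 change of 4.89 beside gene counts of 135995 and 134521 against 97 and 339. Of the 2089 members 2 had a lower ratio than in N2. pgl-3, a P granule protein, had 45 and 15 downstream counts in N2 and 9 and 12 in the mutant (log2 -0.14 ± 0.64), and lido-14 had 17 and 32 against 11 and 18 (log2 -0.25 ± 0.71). Both had risen in xrn-2(xe31) at 6 to 9 h, pgl-3 from 27, 27, 22 and 15 counts to 86, 96, 115 and 134.

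In polyA RNAi, with 1 library per treatment and no replicate check, the members' windows summed to 9863 counts in mock and 145500 in xrn-2 RNAi. With pseudocount 1, 1919 of 2304 members were at 2-fold or more, against 41.1% of all windows. At 2-fold or more below mock were 38 members, against 18.1% of all windows. The members' median was 6.63-fold, a log2 change of 2.73, and 1008 reached 8-fold, against 13.1% of all windows. The comparison group had 22.1% at 2-fold or more. With pseudocount 5 the members' median log2 change was 1.58 and 1480 were at 2-fold or more, a count that was not made over all windows. prp-9 went from 13 to 1569 downstream counts, ucr-2.3 from 9 to 2369, gst-20 from 1 to 928 and crt-1 from 4 to 819. By counts the crt-1 ratio was 209 times mock, with a 95% interval of 81.5 to 770.5 that covers counting error only. glh-2, with one of the earliest rises in xrn-2(xe31), had 1 and 3 downstream counts here, against 4093 and 2073 gene counts. Gene levels differed as in the catalytic-dead strain, with vitellogenins at 34184 CPM in mock and 405.0 in RNAi, oocyte markers at 4975 and 1689 and collagens at 51662 and 18692. Relative to library size alone 1925 of 2304 members were at 2-fold or more, beside 51.3% of all windows; collagens then had 24 of 38 in place of 35, and oocyte genes 6 of 13 in place of 13.

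The rRNA-depleted libraries keep RNA with and without a polyA tail, and their members' windows were already filled in mock, with 2.62 downstream counts per 100 gene counts. The 2 xrn-2 RNAi libraries had 5.54 and 4.68. Of 1742 members tested 0 were called by edgeR with BH adjustment (0.0% over all windows), where 540 rose and 28 fell at an unadjusted p under 0.05 beside 16.1% of all windows that rose. DESeq2 called 306 up, beside 8.34% of all windows. The median log2 change was 0.95 over members and 0.32 over all windows. The change was above 0 in 1405 of 1742 members, beside 4434 of 7038 windows, and 337 members had a lower ratio than mock. Vitellogenins were at 19481 CPM in mock and at 821 and 5077 in the RNAi libraries, collagens at 37061 against 23604 and 25012, and intestine markers at 9952 against 7067 and 7382; their part in the result was not tested. Downstream of prp-9 mock had 32 counts and the RNAi libraries 785 and 1250, and downstream of ucr-2.3 98 against 2322 and 1212. By contrast rps-11 had 36 against 51 and 50, and eef-2, translation elongation factor 2, 44 against 33 and 43. dpy-4 had 2 against 828 and 1090 counts, beside gene counts of 4391 against 37107 and 33260. kin-14 was at 0 in mock and at 103 and 86 in the RNAi libraries.

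**Figure D5:**
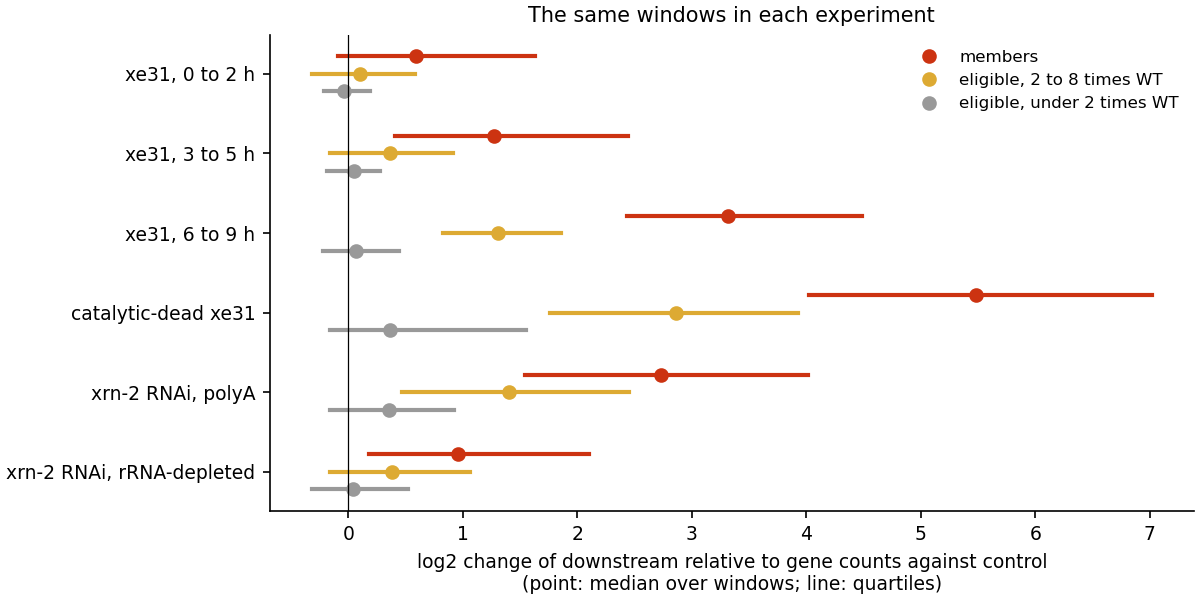
Log2 change of downstream relative to gene counts in each experiment for members, eligible windows of 2 to 8 times WT and eligible windows under 2 times WT; points are medians over windows and lines run from the lower to the upper quartile. Members are highest in every experiment, from a median of 0.59 at 0 to 2 h and 0.95 in rRNA-depleted RNAi to 5.48 in the catalytic-dead strain.

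The same windows were then followed across experiments whose controls are separate libraries. Of 2048 members tested in xrn-2(xe31) at 6 to 9 h, in the catalytic-dead strain and in polyA RNAi, 1663 (81.2%) rose in all of them, with the 2-fold limit standing in for a test in the last. In the comparison group this was 24 of 1379 (1.74%), and in the group between 2 and 8 times WT 585 of 1591 (36.8%). These groups were set by their ratio at 10 h, so their shares follow in part from the rule. The joint share over all windows was not counted. Singly, 42.2% of all windows rose at 6 to 9 h and 46.3% in the catalytic-dead strain. In polyA RNAi 41.1% were at 2-fold or more. Across members the size of the change was only loosely ordered alike. Spearman's rho was 0.42 between xrn-2(xe31) and the catalytic-dead strain, 0.32 between xrn-2(xe31) and polyA RNAi and 0.50 between the catalytic-dead strain and polyA RNAi. These describe the ranking over 2048, 2232 and 2089 members, which share libraries and depth. The late change was nearly unrelated to the gene's WT level across members (rho 0.11).

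The members' own genes changed little in size, and more of them fell than rose. From 6 to 9 h 248 of 2304 rose and 620 fell (edgeR on gene counts, BH), at a median log2 of -0.07. Over all genes 13.8% rose and 16.2% fell. In the comparison group 187 of 1390 rose and 191 fell, and between 2 and 8 times WT 174 of 1681 rose and 477 fell. The members' counts vary with the fit: without an hour block 55 rose and 95 fell, and without 8 h 404 fell. The downstream ratio had a median log2 change of 3.41 in members whose gene rose, 3.30 where it fell and 3.30 where neither was called. Among lists, 13 of 19 germline members, 15 of 26 mitosis members and 13 of 41 ribosomal members fell, all with 0 rises. Their medians were -0.15, -0.17 and -0.11. Sperm members rose in 9 of 15 and fell in 1 (median 0.28). The whole lists, member or not, changed in the same direction. Falls were 22 of 38 germline, 25 of 52 mitosis and 37 of 79 ribosomal genes, with 0, 2 and 0 rises. Of 78 sperm genes 24 rose and 1 fell. Upstream windows were also higher, and not for members alone. For members 386 of 676 tested rose and 25 fell, with a median of 1.16. Over all upstream windows 48.0% rose and 3.83% fell. In the group between 2 and 8 times WT 239 of 437 rose and 19 fell, with a median of 1.14. In the comparison group 121 of 318 rose and 12 fell, with a median of 0.43. With no filter on low counts 565 of 2073 upstream windows of members rose.

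Genes that lie next to members were read in the order of the annotated genes, with no regard to strand. Of 3046 tested genes that flank at least 1 member and are not members, 564 (18.5%) rose from 6 to 9 h, 282 of them by over 2-fold, against 1312 of 10298 (12.7%) of the genes that flank no member, 588 of them by over 2-fold. Falls differed alike: 583 (19.1%) of the flanking genes fell against 1420 (13.8%) of those that flank no member, and the median log2 change of flanking genes was -0.016. Of 1539 tested genes that flank a window of the comparison group and no member, 222 (14.4%) rose, 82 of them by over 2-fold, and 234 (15.2%) fell. Upstream windows rose for 471 of 788 genes next to members (59.8%) and for 810 of 1926 next to none (42.1%). The largest rises among the flanking genes started from nearly nothing. egas-2, a gene of the DEG/ENaC channel family that lies next to the member Y69H2.3, had 0, 0, 1 and 1 gene counts in WT at 6 to 9 h and 7, 62, 293 and 556 in xrn-2(xe31). tbx-8, a T-box transcription factor gene next to T07C4.3, had 1, 0, 3 and 0 against 87, 203, 199 and 154. srw-67, a chemoreceptor gene next to F18E3.13, was at 0 in all 4 hours of WT against 50, 71, 60 and 66, and nhr-241, a nuclear hormone receptor gene next to Y69H2.7, at 0 against 28, 38, 104 and 204. These genes were nearly silent in WT, and whether their reads in the mutant belong to the gene itself or to the RNA of its neighbour was not tested. F54C9.7, next to bcs-1, had 54, 72, 50 and 46 gene counts in WT and 484, 618, 1037 and 1594 in the mutant (log2 3.86, edgeR, BH-adjusted p = 2.58e-05). Without an hour block 268 flanking genes rose. Of 2225 members placed in the order, 27.7% lay next to another member, beside 27.8% of the comparison genes and 32.9% of those between 2 and 8 times WT that lay next to a member.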

How the data were processed

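Raw counts of reads over genes, over windows downstream of genes and over windows upstream of them were deposited by the authors; the genome build was ce10, per the submitters' processing notes. Of the aligner, the counter, the strand setting and the windows' lengths and positions, nothing was known here. Per the labels' protocols, RNA was prepared by TRI Reagent, then DNase-treated, and libraries were made by TruSeq mRNA (polyA) or NuGEN Ovation Universal (rRNA-depleted) kits. Of 51 samples, 35 RNA libraries were used and 16 ChIP and input samples were not; 4 gene columns and 8 window columns that match no sample were not used. Members and gene lists were chosen with earlier results of these data known.

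Downstream and gene counts were fitted together in edgeR 4.0.16 (R 4.3.3, quasi-likelihood, TMM): in the time course with library, kind of count by hour and kind by strain in 3 spans of hours (20 libraries, 7 residual degrees of freedom), and in the catalytic-dead (4 libraries) and rRNA-depleted (3 libraries) sets with 1 residual degree of freedom. Windows needed 20 downstream counts in all and a mean of 10 gene counts, and BH adjustment ran over all windows. The spread is that between hours, not between replicate cultures, so p-values measure the spread between these libraries, which may be technical. PolyA RNAi, with 1 library a group, was read as a 2-fold limit with pseudocount 1. DESeq2 1.42.0 and limma 3.58.1 were alternatives, and the fits were tested on simulated data. The polyA RNAi count relative to library size alone, the filter on WT counts alone and the counts without departing windows were added after seeing the data. Intervals and floors (3 counts) cover counting error only.

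Named genes were the members with the largest rises in each fit, those with the most gene counts among the lower ones, up to 3 members per list with the most downstream counts at 9 h, those nearest the limit, those with the largest and smallest shares, the flanking genes with the largest rises, and bcs-1 and xrn-2; members at 4 times WT from 0 h were named besides. Symbols matched 42362 of 44200 gene IDs. Neighbours follow gene order in the WBcel235 annotation without strand, in place of the planned reading by strand. Sequences were not used here.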

Additional observations from a re-analysis of the deposited data

Results flagged for a closer look

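The change in the downstream ratio between xrn-2(xe31) and WT differed between the hours after the shift: in 485 members the change at 6 to 9 h was larger than that at 0 to 2 h, by the test of the difference itself (edgeR, BH-adjusted p at or under 0.05), with a median difference of 2.67 on the log2 scale over the 2232 members tested. The difference was 0.10 in crt-1, whose window was already high at 0 h, and it was -2.49 in set-5, the member called in the other direction. Each strain has 1 library per hour, so the spread behind this test is that between hours fitted together.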

How the results depend on the processing

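With upstream counts as the reference, which most members could not be fitted with, 241 of 361 members rose at 6 to 9 h, 55 at 3 to 5 h and 12 at 0 to 2 h, 42 had a larger late change, 281 of 812 rose in the catalytic-dead strain and 32 in rRNA-depleted RNAi. Under that reference the late log2 change was -0.53 for fipr-2 and -2.73 for ZK355.2, and the catalytic-dead one -2.56 for fipr-2, -3.26 for col-20, -0.67 for col-124, -1.75 for nlp-80 and -0.73 for gst-20; with library size alone col-122 was at -4.58; the cause was not tested. DESeq2 called 127 members at 3 to 5 h, 24 at 0 to 2 h, 254 late minus early and 306 in rRNA-depleted RNAi, where library size alone gave 259. limma on log2 ratios gave 44 early and 1306 late minus early. With WT 1 h earlier these were 32 and 202, and 212 member genes fell at 6 to 9 h; with WT 1 h later 152 member genes rose. Without an hour block 55 member genes rose, 95 fell and 268 flanking genes rose. Over polyA RNAi windows with at least 20 counts, 1215 of 1294 members were at 2-fold or more, and the median at 9 h with pseudocount 5 was 2.17 in place of 3.42. Leaving out 1 hour at a time gave 1809 to 2113 late rises, 124 to 400 at 3 to 5 h (205 without 4 h), 20 to 80 at 0 to 2 h (39 without 1 h), 263 to 638 late minus early (272 without 1 h), 167 to 266 gene rises, 404 to 665 gene falls, 298 to 389 upstream windows and 414 to 586 flanking genes. With 1 library left out the mean catalytic-dead median was 4.44 to 4.81 and the rRNA-depleted one 0.77 to 0.91. For single named genes, 930 late values under alternatives kept direction and side of the threshold, 9 lost the call, 3 gained it and 2 reversed; in the catalytic-dead strain these were 276, 14, 0 and 6. The time-course fits match the strains by hour, with the effect of dropping that block given above. No paired analysis was possible by replicate number because the polyA pair shares only replicate 3, the rRNA-depleted mock carries no number, and the chromatin groups that share numbers were not used here. Depth limits the early hours most, when many windows held few counts.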
